A study of Drosophila melanogaster with 2 samples.

Results

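The genes described here as places of binding on chromatin are EcR and usp, which encode the receptor of the hormone ecdysone, and br, Eip74EF, Eip75B, Eip93F and Eip63E, which respond to the hormone. They were taken as a named list, with 5 kb on either side of each gene in the Ensembl annotation, and make up 7 of 13945 protein-coding genes on the main chromosome arms. All 7 were found in the annotation. The data are chromatin immunoprecipitations with an anti-GFP antibody from whole Drosophila melanogaster pupae of 1 day, from transgenic flies that carry CG12605, a relative of the zinc finger repressors Snail and Scratch, fused to enhanced green fluorescent protein (strain CG12605-GFP). The 2 samples are biological replicates of this single group, and there is no second genotype, treatment or time. Whole animals were used, so the tissue in which a site was occupied is not known, and the labels do not say which promoter or cells express the fusion.

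Ecdysone is the steroid hormone whose pulses time moulting and metamorphosis in insects. It binds a heterodimer of EcR and Ultraspiracle, the product of usp, and this receptor switches on a small set of early genes, many of which encode transcription factors that then control later genes. Most of these genes are long and have several start sites, each giving its own isoforms.

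The authors ranked peaks by the irreproducible discovery rate (IDR), which is low where a rank repeats between peak calls, and the thresholded lists hold peaks at an IDR of at most 0.01. The conservative list, which pairs the replicates, held 6776 of the 6957 ranked peaks at that limit, and the step that removed the others is not stated. Of the 6776 summits, 67 fell in the 7 genes and their flanks. That is 11.6 summits per 100 kb over 579 kb, against 5.06 per 100 kb over all main arms. Eip75B held 26, Eip74EF 13, Eip93F 11, EcR 7, Eip63E 7, br 2 and usp 1. Each gene had a summit in the gene or within 5000 bp, as did 49.8% of all protein-coding genes. Each also had a summit within 1000 bp of an annotated start site, which is called bound below, against 23.1% of all protein-coding genes. Among the 225 genes at least as long as Eip74EF, the shortest of the 6 long members, 53.8% were bound. By start site, with sites less than 200 bp apart merged, 19 of 28 were bound in the 7 genes, against 23.5% of 18294 in all protein-coding genes. No test was made, because the genes were chosen with results of these data known, so these shares describe the list.

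**Figure D1:**
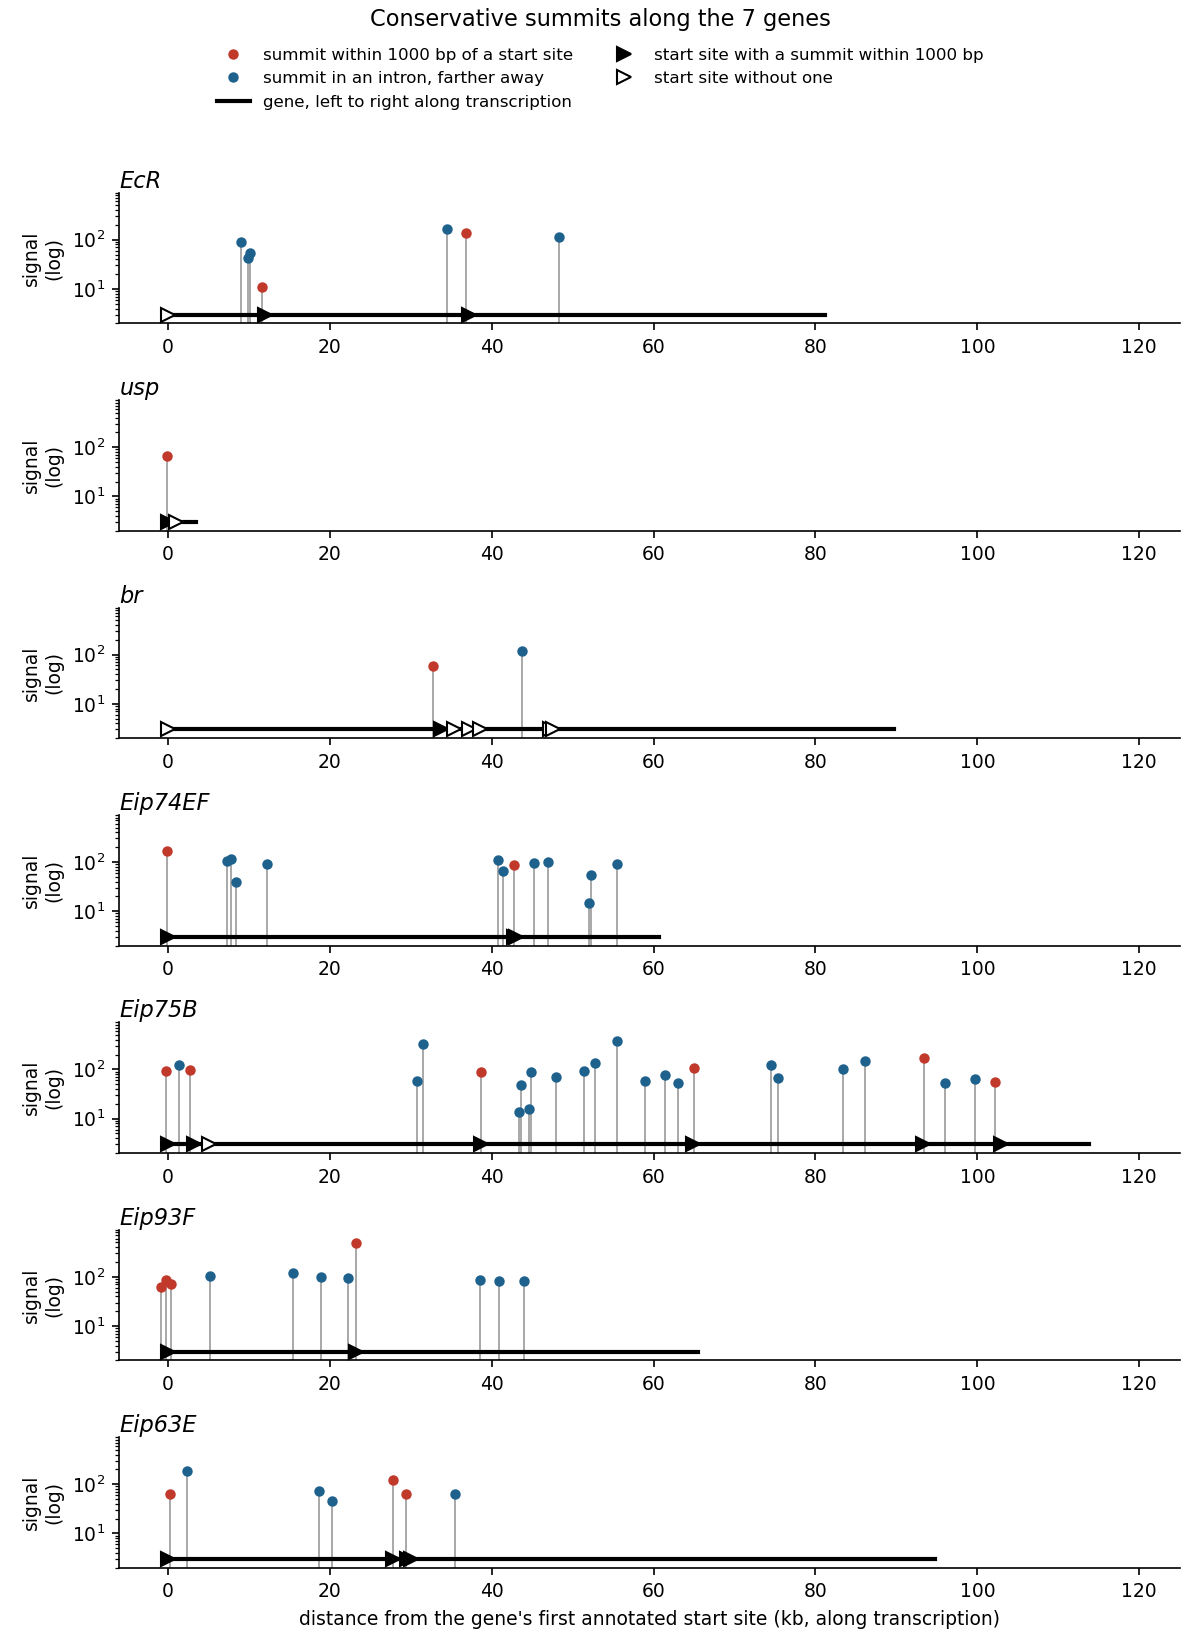
Signal of each conservative summit (log axis, the authors' value) against its distance in kb from the first annotated start site of each gene, along transcription; filled triangles are start sites with a summit within 1000 bp, and open ones are without. The 26 summits of Eip75B spread over most of that gene, while the 2 of br lie in its middle.

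Signal here is the value the authors gave to a peak, of unstated scaling, and it only ranks peaks within a list. Values for a replicate come from its own ranked list, which holds peaks of any IDR. The 67 summits had a median signal of 86.5, against 85.6 over all 6776, and ranged from 11.0 to 495. The median share of the list below a member summit was 50.9%, but 40.0% in the list of replicate 1 alone and 55.4% in that of replicate 2 alone. Of the 67, 3 exceeded 200, against 11.2% of all peaks. The sequences from 50 bases before to 50 bases after 6 summits follow, from the Release 6 assembly and on the strand of the gene, as a view of the DNA at the strongest summit of Eip93F, Eip75B, Eip63E, Eip74EF and br and at the next strongest of Eip75B. They are not the 6 highest signals, since an Eip75B summit of 169 and an EcR summit of 162 are above that of br, at 120, and are not shown. Capitals mark any match, on either strand, to 1 of 7 sequences: those of nuclear receptors (AGGTCA with its variant GGTTCA, and TCANTGA), that of Scratch proteins (CAACAGGTG) with the shorter CACCTG inside its reverse complement, that of the GAGA factor (GAGAG), and the TATA box (TATAAA).
Eip93F, strongest summit, chr3R:21972255-21972355, plus strand: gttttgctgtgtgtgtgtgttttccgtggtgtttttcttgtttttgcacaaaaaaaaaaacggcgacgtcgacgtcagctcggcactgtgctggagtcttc
Eip75B, strongest summit, chr3L:18009151-18009251, minus strand: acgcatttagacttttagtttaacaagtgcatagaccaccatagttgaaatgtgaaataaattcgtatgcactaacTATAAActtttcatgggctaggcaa
Eip75B, next strongest summit, chr3L:18033094-18033194, minus strand: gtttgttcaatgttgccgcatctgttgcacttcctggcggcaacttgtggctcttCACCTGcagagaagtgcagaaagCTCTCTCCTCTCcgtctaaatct
Eip63E, strongest summit, chr3L:3518005-3518105, plus strand: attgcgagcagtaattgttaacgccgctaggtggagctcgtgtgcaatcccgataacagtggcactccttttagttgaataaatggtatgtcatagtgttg
Eip74EF, strongest summit, chr3L:17619368-17619468, minus strand: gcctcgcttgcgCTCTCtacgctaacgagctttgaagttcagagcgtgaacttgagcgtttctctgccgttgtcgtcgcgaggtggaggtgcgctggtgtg
br, strongest summit, chrX:1618854-1618954, plus strand: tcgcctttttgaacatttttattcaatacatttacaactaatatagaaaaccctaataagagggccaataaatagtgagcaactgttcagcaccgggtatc
None of the 7 sequences is in all 6 windows. The Eip93F, Eip63E and br windows hold none of them, the strongest of Eip75B holds TATAAA, the next one CACCTG and overlapping GAGAG, and that of Eip74EF holds GAGAG.

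The receptor gene EcR (FBgn0000546, 2R, 6087873 to 6169087, minus strand) encodes the nuclear receptor that binds ecdysone. Of its 7 summits, 4 lay within 2.56 kb in the first intron of EcR-RA and 3 in the third intron. The strongest, at 6134659 with a signal of 162, lay inside the third intron of EcR-RA and had signals of 68.5 in replicate 1 and 77.9 in replicate 2. A start of CG14589 was 2644 bp from it, nearer than any EcR start. This summit lay 2737 bp upstream of the start shared by EcR-RB and EcR-RC. A summit 341 bp upstream of that start, at 6132263, had a signal of 136. It ranked unevenly between the replicates. Replicate 1 gave 33.8, with 88.8% of its ranked list lower, and replicate 2 gave 93.1, with 97.7% lower. Only the thresholded list of replicate 2 held this peak. Near the start of EcR-RD and EcR-RE, 326 bp upstream, the conservative summit had a signal of 11.0, and only 1.05% of the list was lower. A stronger peak beside it, at 6157255 with a signal of 73.4, was in the ranked list with an IDR of 0.481, and the thresholded list of a further, series-level pairing held it. Within 1000 bp of this start the highest signal was 34.3 in replicate 1, with 89.1% of its ranked list lower. In replicate 2 it was 59.6 at 6157219, with 94.7% lower, and the thresholded list of replicate 2 held that summit. The most upstream start, that of EcR-RA, was not bound, and the nearest summit was 9074 bp away. There the ranked lists held no summit within 1000 bp for the conservative pairing or for replicate 1, and 3 for replicate 2, the highest with a signal of 29.7. The last 32.8 kb of EcR, which follow the summit at 6120712, held none. Among the 221 genes of like length (within 1.5 times), 54 had more summits than EcR.

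The gene usp (FBgn0003964, X, 2038798 to 2042311, minus strand) encodes the partner of EcR, the fly counterpart of the retinoid X receptor of vertebrates. It is the only short gene of the 7, at 3.51 kb. Its single summit, at 2042371, lay 60 bp upstream of usp-RB, with a signal of 65.6, below that of most peaks (27.7% of the list was lower). Replicate 1 gave 34.9 and replicate 2 gave 29.8, and only the thresholded list of replicate 1 held the peak. Actn has an annotated start at the same base, and CG4313, on the opposite strand, starts 503 bp from the summit and covers it, so the peak cannot be assigned to usp alone. The start of usp-RA was 1059 bp from this summit and was not counted as bound. Among the 3180 genes of like length, 812 had more summits than usp, and the median was 1.

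Among the early genes, br (Broad, FBgn0283451, X, 1575132 to 1664869, plus strand) had the fewest summits for its length. It encodes BTB zinc finger transcription factors that specify the pupal stage. Of its 7 start sites 1 was bound, and its 2 summits made 2.01 per 100 kb, below the 5.06 of all arms. The summit at 1607929, 940 bp upstream of br-RH, had a signal of 59.0, with 36.1 in replicate 1 and 31.9 in replicate 2, and neither thresholded list of a replicate held it. The other, at 1618904, had a signal of 120, with 78.3 in replicate 1 and 34.3 in replicate 2. It lay in the first intron of br-RN and 749 bp from a start of Mur2B, a gene on the opposite strand whose span covers both summits. The start shared by br-RA and 8 other transcripts was not bound: the nearest conservative summit was 4379 bp away, neither the conservative pairing nor replicate 1 had a ranked summit within 1000 bp, and the highest of replicate 2 had a signal of 18.2. Of the 191 genes of like length (within 1.5 times), 112 had more summits than br.

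Eip74EF (FBgn0000567, 3L, 17558672 to 17619325, minus strand) encodes the ETS-domain factor E74. All 3 of its start sites were bound. The first, shared by Eip74EF-RA, Eip74EF-RC and Eip74EF-RE, had its summit 93 bp upstream, at 17619418, with a signal of 166, and with 65.3 in replicate 1 and 89.3 in replicate 2. The starts of Eip74EF-RB and Eip74EF-RD share a summit at 17576595 of signal 85.5, which neither thresholded list of a replicate held. The other 11 summits were intronic. Of these, 4 lay in the first intron of Eip74EF-RE within 4.97 kb, where signals ran from 39.8 to 116, and 6 in the fifth intron, around the internal starts. Between these groups 28.5 kb held no summit. Of the 351 genes of like length, 13 had more summits.

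Eip75B (FBgn0000568, 3L, 17950953 to 18064696, minus strand) encodes the nuclear receptor E75, which binds haem. Its 26 summits put it behind only sbb with 28 and kirre with 27 among all 13945 protein-coding genes, and 1 of the 136 genes of like length had more. Of its 7 start sites 6 were bound, with signals from 56.2 at Eip75B-RD to 169 at Eip75B-RA, where replicate 1 gave 95.02 and replicate 2 gave 72.5. Its strongest summits were not at a start site. That at 18009201, with a signal of 373, lay 9380 bp upstream of Eip75B-RC, with 117 in replicate 1 and 244 in replicate 2. That at 18033144, with a signal of 334, lay 7112 bp upstream of Eip75B-RG, with 119 in replicate 1 and 217 in replicate 2. In each replicate these 2 stood above every other conservative summit of Eip75B with a value there. At both, 98.8% of the ranked list of replicate 1 was lower. In that of replicate 2, 99.7% was lower at 18009201 and 99.6% at 18033144. The 2 belong to the 15 summits in the third intron of Eip75B-RF, 65240 bp long, which also holds the starts of Eip75B-RC and Eip75B-RG. A stretch of 28.0 kb without a summit, from 18033934 to 18061935, contains the start of Eip75B-RB, the only one of this gene that was not bound. The ranked list gave that start a signal of 19.7 at an IDR of 0.343.

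Eip93F (FBgn0264490, 3R, 21949114 to 22014539, plus strand) encodes E93, a factor of late pupal and adult development. It held the highest summit of the 7 genes, at 21972305, with a signal of 495 and rank 120 of 6776. The summit lay 74 bp upstream of the start of Eip93F-RA and Eip93F-RC, and replicate 1 gave 191 and replicate 2 gave 296. Around the upstream start, that of Eip93F-RB, 3 summits lay within 1000 bp, with signals of 61.4, 86.2 and 70.4, and only the middle one, 269 bp upstream, was in the thresholded list of both replicates. The 7 intronic summits farther away had signals from 83.0 to 120. The last 21.4 kb of the gene held none. Of the 313 genes of like length, 28 had more summits and 14 had a higher one.

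Eip63E (FBgn0005640, 3L, 3515751 to 3610521, plus strand) encodes a cyclin-dependent kinase and is the only member here that is neither a receptor nor a transcription factor. All 4 of its start sites were bound, at signals from 63.6 to 123. The start of Eip63E-RC, Eip63E-RK and Eip63E-RL and that of Eip63E-RJ share a summit at 3545203 of signal 64.4. Neither thresholded list of a replicate held that peak. Only the start shared by Eip63E-RA and 4 other transcripts, 7 bp from the summit at 3543587, was bound in the list of each replicate, with 63.7 in replicate 1 and 65.9 in replicate 2. The strongest summit, at 3518055 with a signal of 189, lay 2304 bp downstream of the first start, with 99.97 in replicate 1 and 90.9 in replicate 2. The 59.4 kb downstream of 3551163 held no summit, the longest empty stretch in any of the 7 genes. Among the 177 genes of like length, 48 had more summits than Eip63E.

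**Figure D2:**
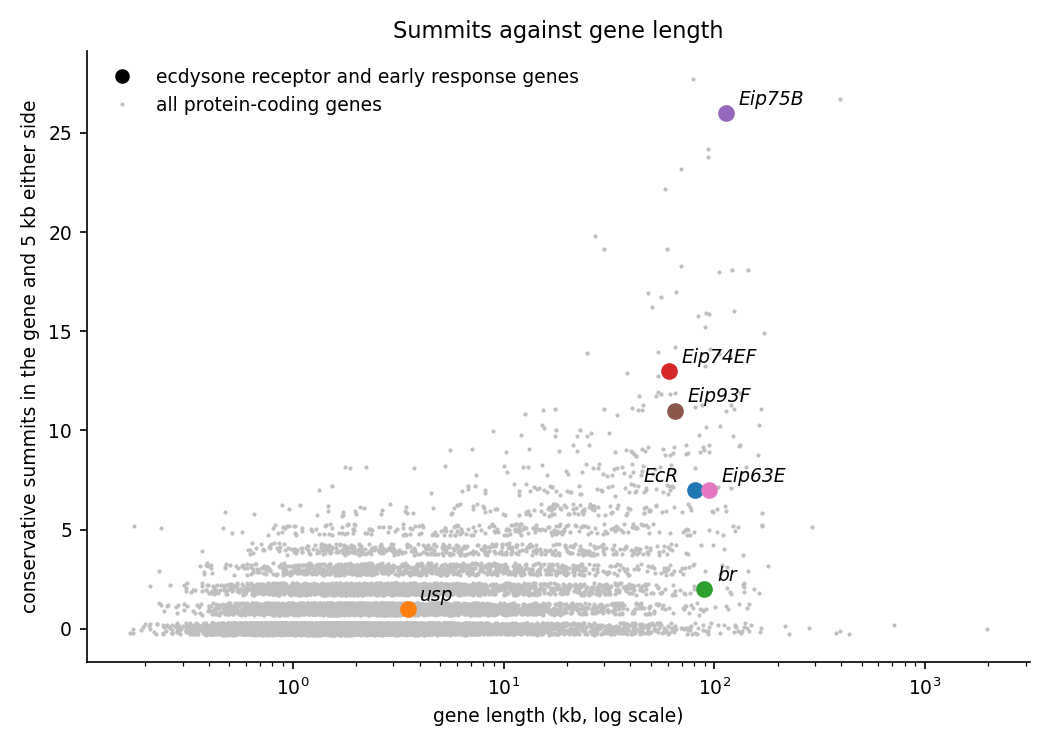
Conservative summits in each gene and 5 kb either side against gene length in kb (log axis); coloured points are the 7 genes and grey points, jittered vertically, are all protein-coding genes. Eip75B (26 summits), Eip74EF (13) and Eip93F (11) lie above most genes of like length, and br (2) lies under the median of 4 for genes of its length.

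By place, the summits of the 7 genes were mostly intronic. Of 67, 47 (70.1%, exact 95% binomial interval 57.7 to 80.7%) lay in an intron over 1000 bp from every protein-coding start site, against 33.8% of all conservative summits. The whole list also covers summits outside genes and in short genes, so this share is not matched for gene length. The part of gene length in the difference was not tested. Within 1000 bp of a start site of their own gene were 19, of which 12 were upstream and 7 downstream. The intervals cover counting error only, and summits of a gene share its chromatin and are not independent. The median signal was 86.5 for the intronic summits and 86.6 for the 20 within 1000 bp of any start site, which include the br summit near Mur2B, against 85.1 and 86.8 over the whole list. Of the 67 peaks, 8 touch a neighbouring peak of the list, and counted once these leave 63.

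The flanks added little. They held 5 summits, all upstream and within 858 bp of the gene, the farthest at Eip93F with a signal of 61.4. Just outside, the nearest summits lay 6892 bp from Eip63E (signal 103), 7967 bp from usp (370), 9060 bp from Eip75B (66.9), 10542 bp from Eip93F (85.5), 11121 bp from EcR (130), 23281 bp from br (61.8) and 24540 bp from Eip74EF (57.8).

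Many of the peaks were in the list of 1 replicate or of neither, as in the whole list. Of the 67 peaks, 29 (43.3%, interval 31.2 to 56.0%) overlapped a peak in the thresholded list of each replicate, against 48.3% of the whole list. Only replicate 2 held 16, only replicate 1 held 5, and 17 were in neither list, though all 67 overlapped a ranked peak of each. In all, the list of replicate 1 held 34 (50.7%), against 57.0% of the whole list. That of replicate 2 held 45 (67.2%), against 70.0%. Of the 20 summits within 1000 bp of a start site, 5 were in both lists (25.0%, interval 8.66 to 49.1%), against 50% of all such summits, and of the 47 farther intronic ones 24 were (51.1%), against 47.2%. By start site, 5 of the 28 were bound in the list of each replicate: 2 in Eip93F and 1 each in Eip74EF, Eip75B and Eip63E. Another 7 bound start sites were in neither list. Replicate 1 alone gave 5 bound genes, without EcR and br, and replicate 2 alone gave 5, without usp and br. The lists of the replicates are shorter than the conservative list, with 4022 peaks for replicate 1 and 5394 for replicate 2. The shares of all start sites and of all genes bound in them were not counted, so these falls are not shown to be particular to the 7 genes.

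**Figure D3:**
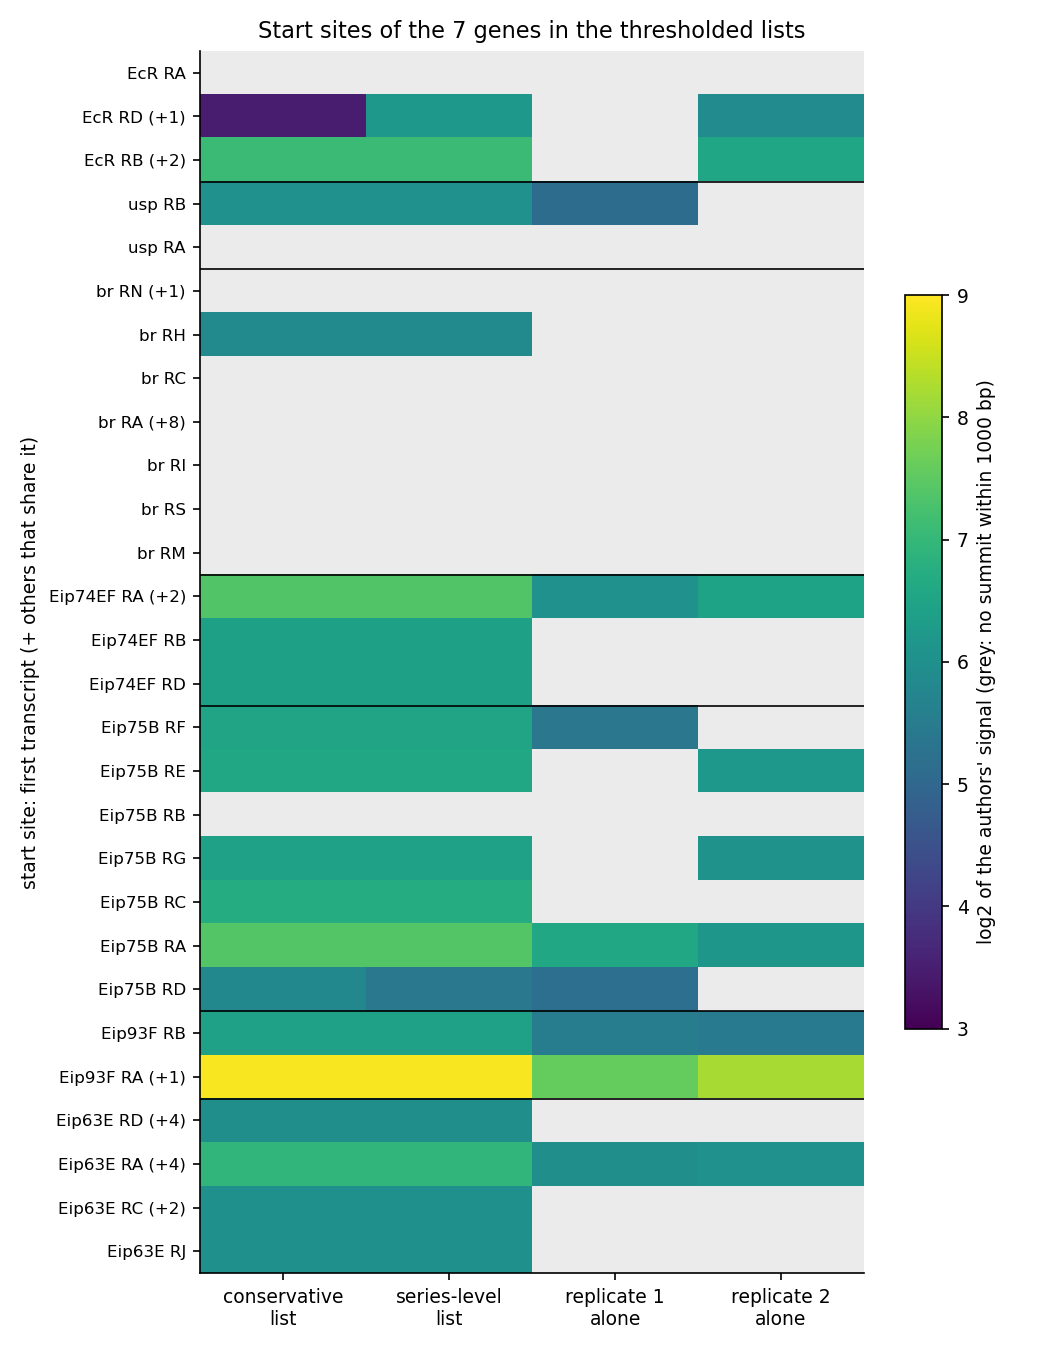
Start sites of the 7 genes (rows, named by their first transcript, in the order of transcription) in 4 thresholded lists (columns); colour is log2 of the highest signal within 1000 bp, or of the nearest summit for the conservative list, and grey means none. Of 28 rows 19 are filled in the conservative list, 8 for replicate 1 alone and 9 for replicate 2 alone.

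A summit within 100 bp was found in the ranked list of both replicates for 57 of the 67. There replicate 2 had a signal 1.17 times that of replicate 1 at the median (log2 ratio 0.22), against 1.19 times over 5991 peaks of the whole list (log2 ratio 0.25). Replicate 2 was the higher at 38 summits and replicate 1 at 19. By gene the median log2 ratio was 0.45 for Eip75B over 22 summits, 0.37 for EcR over 4, 0.35 for Eip93F over 11, 0.22 for Eip74EF over 12 and 0.11 for Eip63E over 5. It was -0.69 for br over 2 and -0.23 for usp, with a single summit. Read depth of the libraries and the scaling of the signal are unknown, so this ratio cannot be set against depth or read as a ratio of binding.

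**Figure D4:**
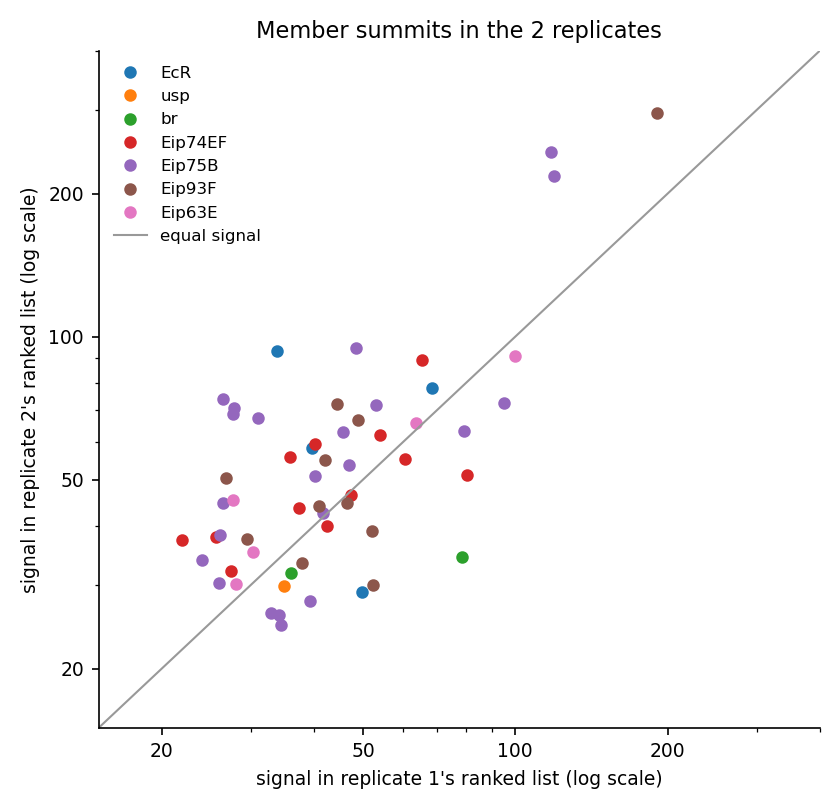
Signal in the ranked list of replicate 2 against that of replicate 1 (both log axes) for the 57 summits paired within 100 bp, coloured by gene; the line marks equal signal. The Eip93F summit and both strong Eip75B summits are highest in each replicate, and 38 of 57 points lie above the line.

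**Figure D5:**
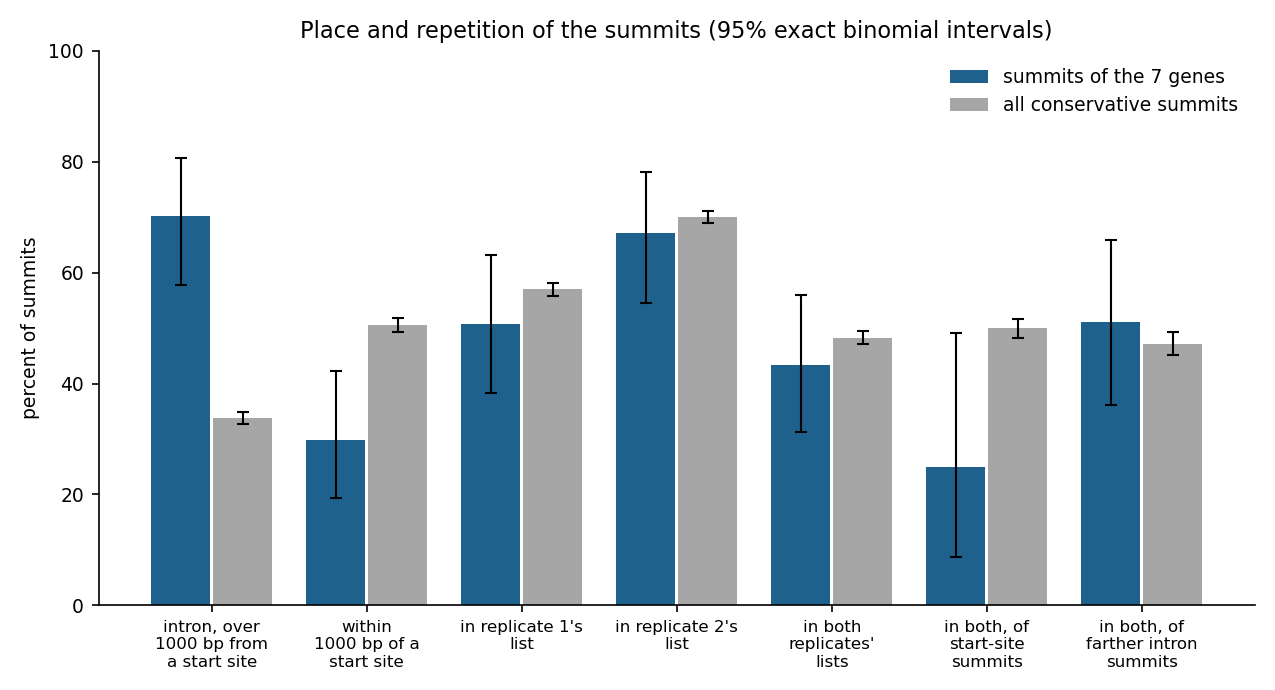
Percent of summits by place and by presence in the replicates' thresholded lists, for the 7 genes (blue) and for all conservative summits (grey), with exact 95% binomial intervals; the last pairs of bars take only summits within 1000 bp of a start site, or only farther intronic ones. The 7 genes have 70.1% of summits in introns far from start sites against 33.8%, and 25.0% of start-site summits in both lists against 50%. The grey bars are not matched for gene length.

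In the ranked list, which holds 47103 peaks of any IDR, the 7 genes had 405, or 69.9 per 100 kb against 35.1 over the main arms. Of these 405, 16.5% reached the conservative list, against 14.4% of all ranked peaks. The share was 26.8% in Eip75B and 3.45% in br, where 2 of 58 did. No ranked peak of a member that was left out exceeded the median signal of the conservative list, and the highest of them was the EcR peak of 73.4.

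The windows of 50 bases on either side of the 67 summits were richer in G and C, with a mean of 42.5% ± 10.3 (SD), against 38.3% ± 11.6 over all 6776. Among intronic summits far from start sites the means were 41.2% ± 10.04 and 35.4% ± 10.1. GAGAG, the core of the sites of the GAGA factor, was in 25 of 67 windows (37.3%, interval 25.8 to 49.99%), against 19.6%. Eip75B supplied 14 of the 25 and Eip74EF 5, and without Eip75B the count was 11 of 41 (26.8%, interval 14.2 to 42.9%). In the farther intronic windows GAGAG was in 18 of 47 (38.3%), against 16.3%. The windows with GAGAG had a mean GC content of 48.5%, and the part of base composition in this count was not tested. TATAAA was in 7 windows (10.4%, interval 4.30 to 20.3%), against 16.8%. CAACAGGTG, a sequence bound by Scratch proteins, was in 0 of 67, which allows a share of up to 4.48% (3 counts; the exact interval reaches 5.36%), against 0.871% of all windows, and the shorter CACCTG was in 3 (4.48%), against 3.28%.

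The receptor of ecdysone itself binds inverted repeats of sequences close to AGGTCA, with TCANTGA at their centre. AGGTCA was in 3 windows (4.48%, interval 0.933 to 12.5%), against 1.48% of all, TCANTGA in 4 (5.97%, interval 1.65 to 14.6%), against 2.18%, and GGTTCA in 3 (4.48%), against 2.45%. In all, 8 of 67 windows (11.9%) held at least 1 of them, against 5.81% of all windows. The counts are small, and the lower limits given lie below the shares of the whole list. At the EcR summit at 6120712 (signal 111) AGGTCA from 6120746 to 6120751 overlaps TCANTGA from 6120742 to 6120748, an arrangement found at 3 of 6776 summits. The thresholded list of replicate 1 had a summit 4 bp away, and that of replicate 2 had one 114 bp away, too far for its window to hold the match; the series-level list had no peak there. The matches of the other genes outside annotated UTRs follow with 8 bases on each side, on the strand that reads the sequence searched, to show their surroundings; capitals mark the match.
Eip74EF AGGTCA, chr3L:17567095-17567116, minus strand: caagaaaaAGGTCAaaatatat
Eip74EF TCANTGA, chr3L:17610949-17610971, plus strand: aacatttcTCATTGAaattgaat
Eip75B GGTTCA, chr3L:17968627-17968648, minus strand: acgaaagtGGTTCAtgcgtgtg
Eip75B TCANTGA, chr3L:17968686-17968708, plus strand: gcgagaagTCAATGAacgtggaa
Eip75B AGGTCA, chr3L:18003323-18003344, plus strand: cgaaatgaAGGTCAgcagcaca
Eip93F TCANTGA, chr3R:21971355-21971377, plus strand: catgcaacTCACTGAgcgacaga
Apart from the core match, these 6 stretches differ from each other, and none holds AGGTCA and TCANTGA together. The peaks that carry them had signals from 39.8 to 96.2. Not printed are GGTTCA near the EcR summit at 6158953 (signal 54.5) and GGTTCA at the Eip75B-RA start, from 17971241 to 17971246 near the summit at 17971272 (signal 169). That last match and the TCANTGA of Eip93F are the 2 of the 10 that also lay in the windows of both replicates' thresholded lists and of the series-level list.

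Genes with a like number of summits and a like highest signal, at similar length, were listed as a description over the conservative list alone. The closest were sdt and CG34347 to EcR, CG32681 and Idgf2 to usp, CARPB and NetB to br, cv-c and Samuel to Eip74EF, Snoo and Tet to Eip75B, brat and Syp to Eip93F, and EcR and CG42747 to Eip63E. Snoo and Tet held 24 summits each, with highest signals of 369 and 353, against 26 and 373 for Eip75B.

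Other genes of the ecdysone pathway were bound at 20 of 32 (62.5%), against 23.1% of all protein-coding genes. They were not matched for length, and some are long, such as tai at 83.4 kb, while Ldh has 3.59 kb. Among the 225 genes at least as long as Eip74EF, 53.8% were bound. Most of the pathway genes are shorter than Eip74EF, so 53.8% is not a share matched for their length. The part of gene length in the share of the pathway genes was not tested. Receptor partners, cofactors and the importer of the hormone were bound at 6 of 8, transcription factors and a transporter of the response at 8 of 11, and other induced genes at 6 of 13. The highest start-site signals were 589 at tai, the coactivator of EcR, 318 at E23, an ABC transporter, 189.8 at Eip63F-1, a calcium-binding protein, 189.6 at Ldh, lactate dehydrogenase, and 133 at Oatp74D, the ecdysone importer. The tai summit lay 971 bp from the start and the other 4 within 242 bp. No summit lay within 1000 bp of a start of trr, svp, Hr39, Kr-h1 or Blimp-1, although each held at least 1 in the gene or its flanks.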

How the data were processed

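Chromatin from whole pupae was immunoprecipitated in 2 biological replicates of 1 group, and 8 deposited peak lists on dm6 were used, per the labels: ranked and thresholded lists for each replicate, for the conservative pairing of replicates and for a further series-level pairing. Peaks were called against a control and ranked by the irreproducible discovery rate (IDR), per the labels' deposited notes. Neither the aligner nor the peak caller is named in the sources used here. The signal value and the integer score, capped at 1000, are the authors' own. The −log10 of the IDR is also as deposited by the authors, and gives the IDR values quoted. Thresholded lists hold peaks at an IDR of at most 0.01, but not all ranked peaks at that limit, and the further step is not stated. Another 16 columns of the series-level ranked lists carry no sample name and were not used. Read depth is unknown, and the control was not analysed here.

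Summits were placed on Ensembl 115 genes and the Release 6 assembly of dm6 coordinates, with positions counted from 1, using Python 3.11.15, pandas 2.3.3, numpy 2.4.6 and scipy 1.17.1; the counting steps were tested on simulated data. A gene or start site was bound with a summit within 1000 bp, start sites within 200 bp were merged, replicate peaks overlapped by at least 1 bp, and signals were paired within 100 bp. No test was used, since there is a single group. The members, the 34 related genes listed (32 distinct genes matched) and the 7 sequences searched were chosen with earlier results of these data known. Named are the members, the 5 related genes with the highest start-site signal, the 2 genes most like each member in summit number and highest signal, genes that start within 1000 bp of a member summit, and, chosen after their values were seen, 5 related genes with no bound start site and the 2 genes with more summits than Eip75B. CG14589, whose start is the nearest to the strongest EcR summit, is also named and was chosen after its values were seen.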

Additional observations from a re-analysis of the deposited data

How the results depend on the processing

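Of 78 alternative values for 14 results, 58 stayed within 1.5 times the count reported, or within the interval of the value reported. The ranked list, which has no IDR limit, gave 405 member summits and 309 in introns far from start sites, and all 67 conservative peaks overlapped a ranked peak of each replicate. With the list of a single replicate, member summits numbered 35 to 46, intronic ones 26 to 36, bound members 5 with either, bound start sites 8 to 9, and bound related genes 13 to 20. The median percentile by signal, 50.9 as reported, ran from 40.0 without replicate 2 to 55.4 without replicate 1, so its side of the middle of the list turned. Windows with GAGAG numbered 16 of 35 without replicate 2, against 18.5% of all windows of that list. Without replicate 1 they numbered 19 of 46, against 20.2%. In the same 2 lists AGGTCA was in 0 to 2 windows (0 of 46 without replicate 1). GGTTCA was in 1 in either, TCANTGA in 2 to 3 and CAACAGGTG in 0, and mean GC ran from 41.6 to 43.6%. With 25 bases on either side of the summit AGGTCA was in 1, TCANTGA in 1, GGTTCA in 0 and GAGAG in 15; with 100 bases AGGTCA was in 5. The series-level list gave AGGTCA in 1 and TCANTGA in 1. Shares over all windows were not counted at these other widths. In these other lists they were counted for GAGAG alone. Whether the differences from the whole list persist for the other sequences is thus not shown. The changes of GAGAG and GGTTCA and the count of touching peaks were chosen after seeing the data. The causes were not tested. No paired analysis was possible because there is only 1 group.

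Depth is unknown, so a start site without a peak is not shown to be free of the protein. The counts of receptor sequences rest on 3 to 4 windows each. The nearest start site need not be that of the gene regulated, and in whole pupae the cells that gave a peak are unknown.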
